A study of Homo sapiens with 12 samples.

Results

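The immediate early response genes FOS, FOSB, JUN, JUNB, JUND, EGR1, ATF3, IER2, IER3 and DUSP1 were examined before and after knockdown of IGF2BP3. These 10 genes, of the 58721 in the deposited tables, were chosen by name as classical members of the response. The rule used no measured value, though results of these data were known when the genes were picked. All 10 passed the filter on low counts in every comparison. The libraries came from HepG2, a human hepatoma line, in which IGF2BP3 was transiently knocked down (siIGF2BP3) or a control knockdown was made (siControl). IGF2BP3 binds mRNAs and affects their stability and translation. Each knockdown was profiled as Input RNA and as ribosome-protected fragments (RPF), with 3 libraries in each of the 4 groups. All cells received 100 µg/mL cycloheximide for 4 min before lysis. RPF lysates were digested with RNase I for 45 min, and fragments of 28 to 30 nt were recovered. The line carried no other stated genetic change, no growth factor or stress stimulus is given in the labels, and nothing states whether the replicates were separate cultures, so p-values measure the spread between these libraries only.

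Immediate early genes are transcribed within minutes of a growth factor or stress signal without needing new protein synthesis, largely through MAP kinases that act on serum response factor (SRF) and CREB. Their products include transcription factors of the AP-1 complex, in which a FOS family protein pairs with a JUN family protein, and negative regulators such as the phosphatase DUSP1 that switch the signal off. Many of their mRNAs carry AU-rich elements in the 3′ UTR and are short-lived.

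The regulatory sequences of the members are shown first, each motif with its share over all promoters or transcripts. RefSeq promoters (GRCh38.p14, spanning the start site and mostly upstream of it) were listed for 9 members, all but IER3, and both strands were searched. Only this short window was searched, so a member counted as without a motif may hold it further upstream. The SRF motif known as the CArG box was in 1.29% of all 27305 promoters and in 1 member, EGR1, where it was present at −105 and at −83 from the RefSeq start. The full cyclic AMP response element TGACGTCA was in 1.98% of promoters and in 2 members, JUND and DUSP1. Its first 5 letters, TGACG, which the full element contains, were in 25.0% of promoters and in 8 members, FOS at −64 among them. The 30-base windows around these matches are given 5′ to 3′ on the strand of the gene, with the matched letters in capitals.
EGR1 chr5:138465364-138465393 (+): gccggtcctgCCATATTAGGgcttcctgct
EGR1 chr5:138465386-138465415 (+): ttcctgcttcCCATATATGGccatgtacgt
JUND chr19:18281804-18281833 (−): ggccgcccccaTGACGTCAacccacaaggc
DUSP1 chr5:172771302-172771331 (−): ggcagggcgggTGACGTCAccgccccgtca
FOS chr14:75278751-75278780 (+): gtggttgagcccgTGACGtttacactcatt
The TATA box TATAAA was in 12% of promoters and in 4 members (FOS, FOSB, JUNB and DUSP1). The GC box GGGCGG was in 44.6% of promoters and in 7 members. The AP-1 site was in 4.92% of promoters and in none of the 9 members, which says only that these letters are not in this window.

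The core of AU-rich elements, ATTTA, was counted in the 3′ UTR of each gene's canonical GENCODE 44 transcript (hg38). It was present in 9 of 10 members, all but IER2, against 67.8% of 19461 transcripts. The densest were IER3 with 6 copies (8.14 per kb, percentile 97.6 of all transcripts), FOS with 5 (6.20 per kb, percentile 94.6) and DUSP1 with 4 (6.01 per kb, percentile 94.1). The longer form TTATTTATT was present in FOS once and in DUSP1 in 2 copies, against 8.48% of all transcripts. JUND and EGR1 held 1 ATTTA each, and 6 of 10 members lay above the median density of 1.51 per kb. The windows that hold 2 copies in the 3 densest members are given in the same way, with ATTTA in capitals.
FOS chr14:75282057-75282086 (+): ttgtgtttttaATTTATTTAttaagatgga
IER3 chr6:30743648-30743677 (−): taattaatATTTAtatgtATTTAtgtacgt
DUSP1 chr5:172768641-172768670 (−): ggctggtccttATTTATTTAacttcacccg

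Library totals ran from 11219750 to 31510601 counts, and protein-coding genes took 96.2% to 96.6% of counts in Input and 82.7% to 86.2% in RPF. All 11 hepatocyte markers checked, ALB, AFP and APOB among them, were above 1 CPM (counts scaled to each library total) in every group. Of 9 markers of other cell types, 3 or 4 reached 1 CPM in a group and CD3E was at 0 throughout. IGF2BP3 itself fell from 133, 129 and 127 CPM to 103, 97.9 and 106 CPM in Input (log2 fold change −0.39 ± 0.05 SE). In RPF it fell from 74.6, 78.1 and 77.7 to 21.9, 28.0 and 25.2 CPM (log2 −1.59 ± 0.08 SE). The siControl RPF libraries 2 and 3 differed by less than the sampling noise over all genes (mean chi-square 0.941, with 1 expected of counting noise alone). They are counted as 1 sample in means and SDs, so n = 2 there. The group ratios of RPF to Input are the exception and average all 3 libraries. The siIGF2BP3 RPF replicate 1 stood apart from replicates 2 and 3, with a mean chi-square of 19.9 and 21.6 over all genes, while 2 and 3 differed from each other by 1.154. It also had the lowest total of the RPF libraries and the lowest protein-coding share, 82.7%. The changes of the members in RPF and TE are therefore also given without it.

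Transcript levels were ordered per kb of exon, since only levels per length can be set against each other between genes. The exon length in the deposited tables was well above the canonical transcript for some members, such as ATF3 (4040 against 1940 nt). For others, such as JUNB (1820 against 1830 nt), it was not, so the order depends on the length used. In siControl Input, JUN (134.7 ± 12.03 CPM per kb, SD, n = 3) and JUND (124.0 ± 7.72) were the highest and their ranges overlapped. IER3, a stress-inducible survival factor, followed at 84.6 ± 5.63 CPM per kb and the MAP kinase phosphatase DUSP1 at 35.2 ± 8.49, each clear of its neighbours. IER2, a nuclear immediate early protein, and JUNB lay at 13.6 ± 1.32 and 12.1 ± 2.29 CPM per kb with overlapping ranges. ATF3, a stress-induced bZIP factor, and EGR1, a zinc finger transcription factor, lay at 7.81 ± 2.36 and 6.003 ± 0.518 CPM per kb and overlapped as well. FOS was lower at 2.67 ± 0.34 CPM per kb, percentile 38.4 of the genes tested, and FOSB lowest at 0.747 ± 0.208, percentile 13.4. The profile was one of high JUN and JUND beside low FOS and FOSB: JUN and JUND together held 68.0% to 71.7% of the members' Input counts in every library. After the knockdown the order of the 10 transcripts was the same, and no neighbouring pair overlapped.

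In siControl RPF the order per kb of exon differed. JUND was highest at 36.9 CPM per kb, and JUN (18.2) and IER3 (17.7) overlapped below it. Footprints fall on coding sequence, which is 30.5% of the canonical JUN transcript and 54.0% of that of JUND. Per kb of coding sequence, JUND (66.0 CPM) and JUN (64.97 CPM) overlapped and IER3 followed at 51.3 CPM. FOS and FOSB were again lowest per coding kb, at 5.26 and 0.453 CPM. FOSB rests on few reads, between 9 and 69 counts in a library.

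**Figure D1:**
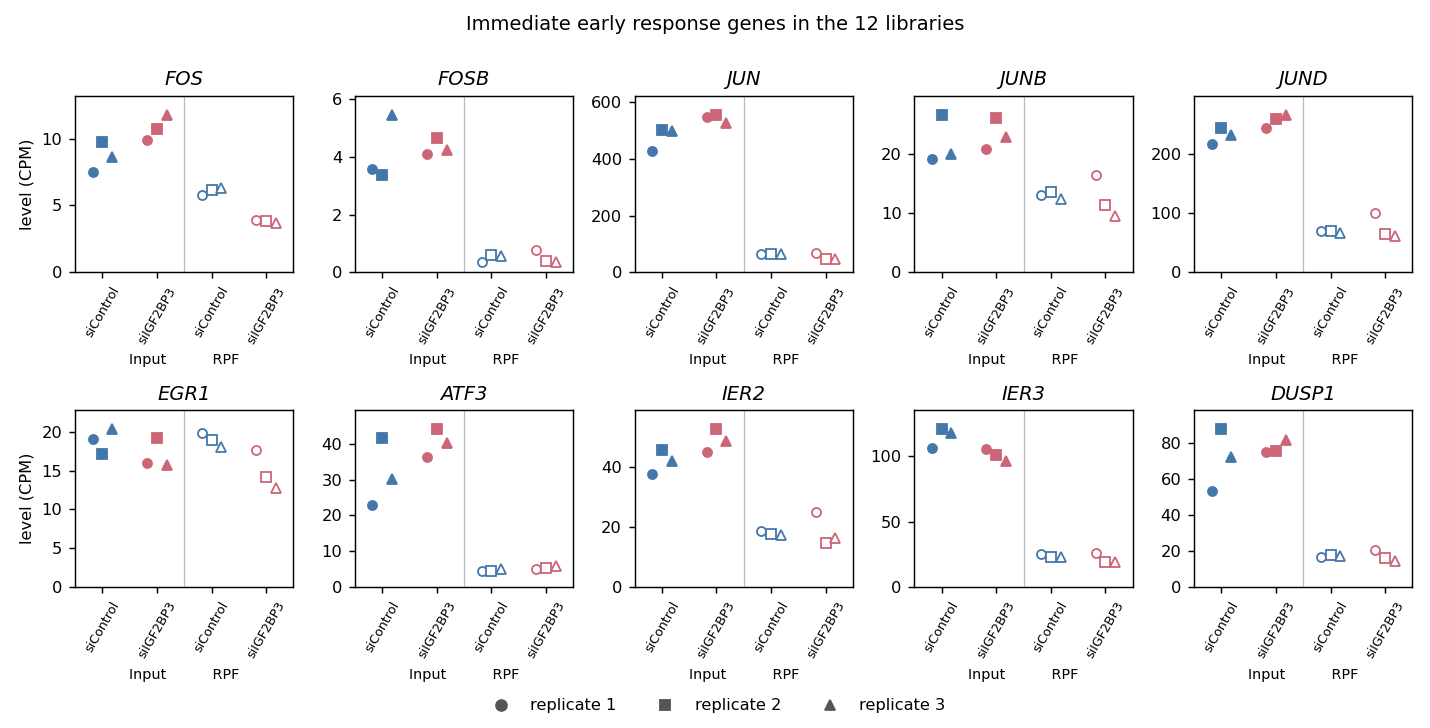
Level of each member in CPM (y axis, from 0) in the 12 libraries, with filled symbols for Input, open symbols for RPF, blue for siControl and red for siIGF2BP3, and the symbol shape for the replicate number. The FOS footprints of the 3 siIGF2BP3 libraries (3.69 to 3.91 CPM) lie below those of siControl (5.78 to 6.28 CPM), and siIGF2BP3 RPF replicate 1 lies highest of its group for 9 of the 10 genes.

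The ratio of RPF to Input CPM, used here as translation efficiency (TE), was low for most members already in siControl cells. It was under the median of 11785 protein-coding genes (0.901) for 9 of 10 members, and EGR1 alone lay above it (1.01, percentile 54.6). The lowest were FOSB (0.1196, percentile 2.38), JUN (0.135, percentile 3.12), ATF3 (0.150, percentile 3.94) and IER3 (0.206, percentile 7.15). DUSP1 stood at 0.242, JUND at 0.297, IER2 at 0.429, JUNB at 0.592 and FOS at 0.703. When footprints were taken per coding kb and transcripts per exon kb, all 10 members lay below the median of 3.15, between percentile 3.93 (DUSP1) and 32.5 (FOS). Among 38 other immediate early genes that could be placed on the same scale, 26 lay below that median and their median was 1.82, against 0.845 for the members. The same count in siIGF2BP3 cells was 10 of 10 members and 25 of 38 other genes, with a median over all genes of 3.03, and all 3 siIGF2BP3 RPF libraries enter these ratios.

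**Figure D2:**
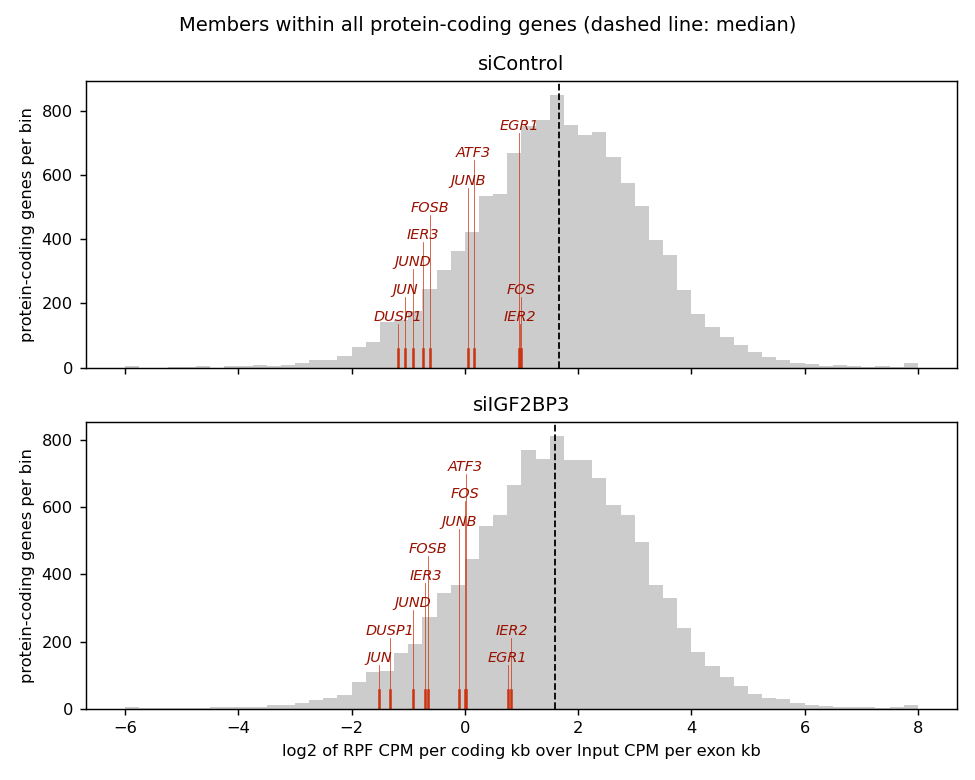
Histogram of the log2 ratio of RPF CPM per coding kb to Input CPM per exon kb (x axis) over 11785 protein-coding genes (y axis, genes per bin of log2 width 0.25, with values beyond the ends placed in the end bins), for siControl and siIGF2BP3. Red ticks mark the members, all 10 of which lie left of the median (dashed line) in both conditions, and FOS moves from percentile 32.5 to 15.4.

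FOS, the founding AP-1 partner of JUN (ENSG00000170345, chr14:75278774-75282230, plus strand), was the member whose footprints and transcripts moved apart by the test with all libraries. Its Input level was 7.51, 9.73 and 8.65 CPM in siControl and 9.89, 10.7 and 11.8 CPM in siIGF2BP3. The siIGF2BP3 libraries were all above the siControl libraries, yet the change of log2 0.27 ± 0.13 SE (95% interval 0.01 to 0.53) did not pass the edgeR quasi-likelihood test after Benjamini-Hochberg adjustment (adjusted p = 0.228). Its RPF level was 5.78, 6.14 and 6.28 CPM in siControl and 3.91, 3.84 and 3.69 CPM in siIGF2BP3. The groups were apart here in the opposite direction, and replicate 1 of siIGF2BP3 lay with its group. Footprints of FOS fell by 0.66 ± 0.09 SE on the log2 scale (adjusted p = 0.0174 by the same edgeR test). The counts behind these values were 182, 131 and 134 in siControl and 51, 93 and 94 in siIGF2BP3. The biological coefficient of variation of FOS in RPF was 0.358 times the trend for its level (percentile 20.45 of all genes). DESeq2 gave the RPF change with a wider error, −0.66 ± 0.18 SE (adjusted p = 0.00828 by DESeq2).

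The RPF to Input ratio of FOS was 0.769, 0.631 and 0.726 in the siControl libraries of the same number and 0.395, 0.359 and 0.313 in siIGF2BP3. The lowest siControl ratio was above the highest siIGF2BP3 ratio by a wide margin relative to either spread. The change in TE was −0.92 ± 0.17 SE on the log2 scale (95% interval −1.27 to −0.56), a fold of 0.529, with adjusted p = 0.00611 in the edgeR interaction test. It lay at percentile 0.33 of the TE changes of all 13395 genes tested. The fall in FOS footprints kept its size but not its call when siControl RPF 2 and 3 were summed into 1 library (log2 −0.64 ± 0.10 SE, adjusted p = 0.106 by edgeR), whereas the TE change passed there too (log2 −0.91 ± 0.18 SE, adjusted p = 0.0184). The RPF call was also lost without any 1 of the siControl RPF libraries (adjusted p = 0.0951 to 0.134), without siIGF2BP3 RPF replicate 2 (0.105) and without replicate 3 (0.0835), and the TE call was kept in each of these. Without siIGF2BP3 RPF replicate 1 both passed, at log2 −0.68 ± 0.09 for RPF (edgeR adjusted p = 0.000595) and −0.94 ± 0.17 for TE (adjusted p = 0.000701). In those fits 16.5% of all genes were called in RPF and 10.0% in TE.

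JUN (ENSG00000177606, chr1:58780788-58784327, minus strand), the most abundant member, had a TE value of the same sign and smaller size that was not called with all libraries. Its Input level was 428, 504 and 498 CPM in siControl and 548, 557 and 528 CPM in siIGF2BP3. These groups did not overlap, and the log2 change was 0.14 ± 0.05 SE (edgeR adjusted p = 0.118) with all libraries and 0.06 (adjusted p = 0.489) without siControl Input replicate 1, the lowest. Its RPF level was 65.7, 64.4 and 62.4 CPM in siControl and 68.0, 45.2 and 47.8 CPM in siIGF2BP3. Replicate 1 of siIGF2BP3 was above all siControl libraries and the other two were below them, so that the change over all libraries was −0.25 ± 0.16 SE (edgeR adjusted p = 0.507). The ratio was 0.154, 0.128 and 0.125 in siControl and 0.124, 0.0811 and 0.0905 in siIGF2BP3. The ratios did not overlap, by a narrow gap, and the TE change was −0.40 ± 0.18 SE (95% interval −0.79 to −0.01, edgeR adjusted p = 0.298). Without siIGF2BP3 RPF replicate 1 it was −0.60 ± 0.08 SE, with adjusted p = 1.74e-05 by edgeR. In that fit 10.0% of all genes were called in TE. The siIGF2BP3 RPF replicates 2 and 3 left in it differed little beyond sampling noise, as did siControl RPF 2 and 3.

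**Figure D3:**
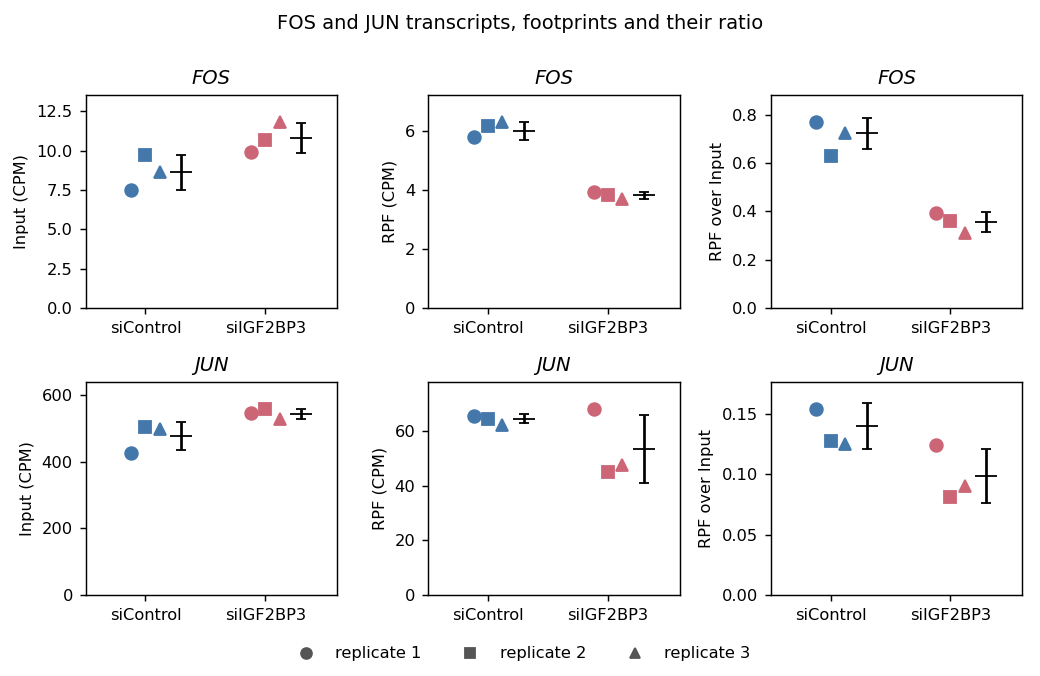
Input CPM, RPF CPM and their ratio (y axes, from 0) for FOS (top) and JUN (bottom) in siControl and siIGF2BP3, with a point per replicate and the black mark at the mean ± SD, where siControl RPF 2 and 3 count as 1 sample. FOS ratios are 0.631–0.769 in siControl and 0.313–0.395 in siIGF2BP3, and for JUN the siIGF2BP3 RPF replicate 1 lies apart from the other two.

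The remaining Jun family genes gave no call. JUNB (ENSG00000171223, chr19:12791496-12793315), an AP-1 subunit that can oppose JUN, had 19.1, 26.8 and 20.1 CPM in siControl Input against 20.9, 26.1 and 23.0 CPM in siIGF2BP3 Input. Its groups overlapped in both assays, with TE changed by −0.12 ± 0.25 SE. JUNB shares 259 nt of exon with HOOK2 on the opposite strand, which had 27.0 CPM in Input. Since the strand setting of the counting is not given in the sources used here, reads in that stretch cannot be told apart. JUND (ENSG00000130522, chr19:18279760-18281622), the constitutive Jun protein, rose in neither assay by the test. Its Input level was 216, 245 and 232 CPM in siControl and 244, 259 and 267 CPM in siIGF2BP3 (log2 0.10 ± 0.05 SE, edgeR adjusted p = 0.237). Its RPF level was 69.2, 70.1 and 66.3 CPM against 100.3, 64.97 and 61.9 CPM, so the single high library set the sign: log2 0.16 ± 0.19 SE over all and −0.11 ± 0.04 SE without it. FOSB (ENSG00000125740, chr19:45467995-45475179) was at most 0.767 CPM in every RPF library, and its TE interval ran from −1.07 to 0.82.

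EGR1 (ENSG00000120738, chr5:138465490-138469315) was the only other member besides FOS whose footprints lay below siControl in every siIGF2BP3 library. It was at 19.9, 19.0 and 18.0 CPM in siControl RPF and 17.6, 14.2 and 12.8 CPM in siIGF2BP3 RPF (log2 −0.36 ± 0.12 SE, edgeR adjusted p = 0.217). Its transcripts, at 19.1, 17.1 and 20.3 against 16.0, 19.2 and 15.8 CPM, overlapped between groups. The TE change was −0.17 ± 0.16 SE, with a 95% interval of −0.51 to 0.17. ATF3 (ENSG00000162772, chr1:212565334-212620777) was the member with the opposite pattern in RPF, at 4.54, 4.55 and 5.11 CPM in siControl and 5.14, 5.41 and 5.85 CPM in siIGF2BP3. The groups lay just apart, and the change of log2 0.23 ± 0.09 SE did not pass (edgeR adjusted p = 0.253). Its transcripts were at 22.8, 41.7 and 30.2 CPM against 36.4, 44.04 and 40.2 CPM, overlapping between groups (log2 0.29 ± 0.24 SE, edgeR adjusted p = 0.583). Without siControl Input replicate 2, its highest siControl library, the change was 0.55 and passed the same test (adjusted p = 0.0028). Without siControl Input replicate 1, its lowest, it was 0.10 (adjusted p = 0.695). The TE interval of ATF3 ran from −0.65 to 0.55.

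Of the stress and feedback genes, IER3 carried the one call in transcripts. IER3 (ENSG00000137331, chr6:30743199-30744554, minus strand) had 106.0, 120.4 and 117.5 CPM in siControl Input against 105.7, 100.6 and 96.5 CPM in siIGF2BP3 Input. The groups did not overlap but nearly touched, at the libraries numbered 1. The log2 change was −0.23 ± 0.06 SE, with a 95% interval of −0.35 to −0.12 (edgeR adjusted p = 0.0124). The call was lost without siControl Input replicate 2 (adjusted p = 0.0740), without siControl Input replicate 3 (0.0722) or without siIGF2BP3 Input replicate 3 (0.0833). Its footprints were at 25.1, 22.9 and 22.8 CPM against 26.2, 19.4 and 19.0 CPM and its TE change was 0.09 ± 0.14 SE. IER3 shares 359 nt of exon with the antisense gene IER3-AS1 (2.90 CPM in Input) and had fractional counts in all 12 libraries, which mark reads shared between alignments or genes. DUSP1 (ENSG00000120129, chr5:172768090-172771195) overlapped between groups in both assays, at 53.2, 87.5 and 72.3 against 75.0, 75.2 and 81.4 CPM in Input (log2 0.06 ± 0.19 SE). Its footprints were at 16.4, 18.0 and 17.2 CPM against 20.5, 15.9 and 14.4 CPM (log2 −0.02 ± 0.14 SE). IER2 (ENSG00000160888, chr19:13150415-13154908) had 37.5, 45.6 and 41.9 CPM in siControl Input against 44.8, 52.5 and 48.6 CPM in siIGF2BP3 Input (log2 0.17 ± 0.08 SE, edgeR adjusted p = 0.181). In RPF it followed the same library as JUND, at 25.1 CPM in siIGF2BP3 replicate 1 and 14.7 and 16.4 CPM in the other two.

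Across the 10 members, the transcript comparison called 1 (IER3, lower), against 5.96% of all genes tested, and 3 members did not overlap between groups, against 25.0% of all genes. Their median log2 change was 0.08 (all genes 0.00), with 8 positive and 2 negative values. The RPF comparison called 1 (FOS, lower) against 1.66% of all genes, and 3 did not overlap against 25.7%. The median was −0.09 (all genes 0.01), with 3 positive and 7 negative values. The TE comparison called 1 (FOS, lower) against 2.17%, and 2 did not overlap (FOS and JUN, both lower) against 21.8%. The median was −0.13 (all genes 0.01), with 2 positive and 8 negative values. The shares of members that did not overlap were near those of all genes in each comparison.

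The siIGF2BP3 RPF replicate 1 weighed on most members. Without it, RPF calls rose to 6 members, FOS, JUN, JUNB, EGR1, IER2 and IER3, all lower in siIGF2BP3, while the calls over all genes rose from 1.66% to 16.5%. The changes of those not yet given were −0.47 ± 0.04 for JUN, −0.32 ± 0.08 for JUNB, −0.50 ± 0.06 for EGR1, −0.21 ± 0.06 for IER2 and −0.31 ± 0.05 for IER3 (log2 ± SE). DUSP1 (−0.18 ± 0.07 SE) and FOSB (−0.42 ± 0.32 SE) were not called, and ATF3 was the one member with a positive value, 0.26 ± 0.09 SE. In TE, FOS, JUN and IER2 were called, all lower and with all 10 values negative, against 10.0% of all genes. The TE values were −0.37 ± 0.11 for IER2, −0.34 ± 0.16 for JUNB, −0.31 ± 0.12 for EGR1, −0.21 ± 0.07 for JUND and −0.07 ± 0.09 for IER3 (log2 ± SE). DUSP1 (−0.23 ± 0.28), ATF3 (−0.02 ± 0.39) and FOSB (−0.44 ± 0.47) had wide errors. The 2 libraries left, siIGF2BP3 RPF 2 and 3, differed little beyond sampling noise (mean chi-square 1.154), as did siControl RPF 2 and 3, while siControl RPF 1 differed from these by 2.80 and 2.09. With siControl RPF 2 and 3 summed as well, a setting chosen after seeing the data, IER2 was no longer called in RPF (adjusted p = 0.0504 by edgeR) and the other 5 were (14.5% of all genes). In TE the same 3 members were called there (8.05% of all genes). With all siIGF2BP3 libraries kept and siControl RPF 2 and 3 summed, no member was called in RPF (0.0673% of all genes), and FOS alone in TE (1.06%).

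**Figure D4:**
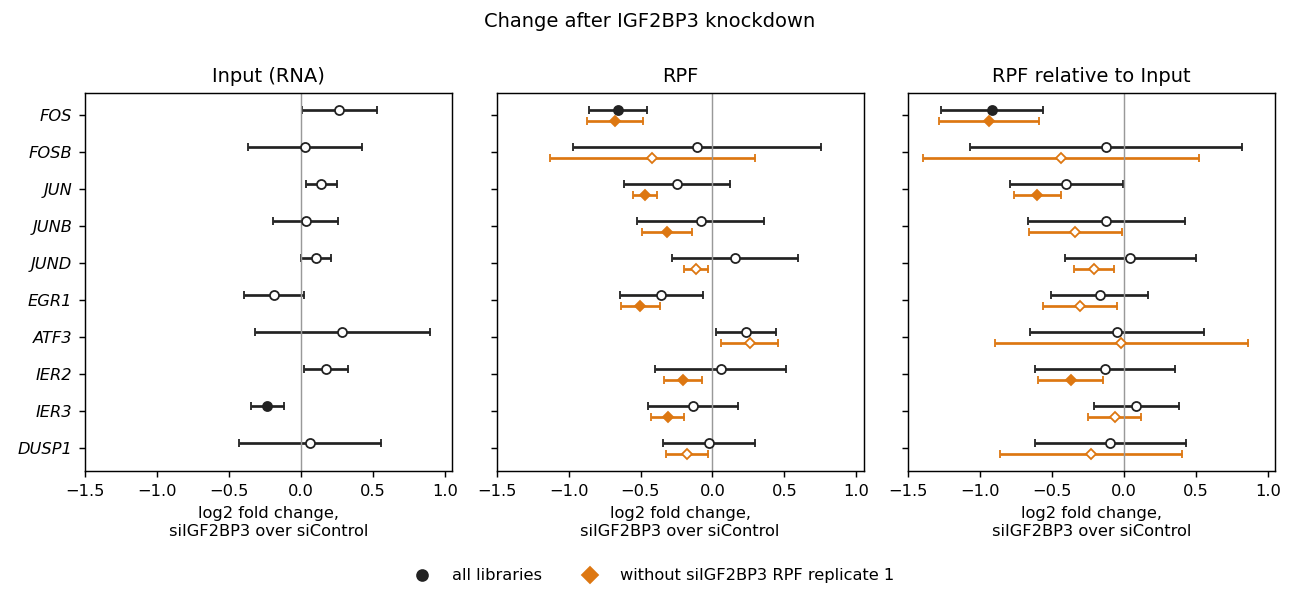
Log2 fold change of siIGF2BP3 over siControl (x axis) for each member in Input, RPF and RPF relative to Input, with bars for the 95% interval of the edgeR fit and filled symbols where the adjusted p was under 0.05. FOS lies at −0.66 in RPF and −0.92 relative to Input with all libraries (black), and without siIGF2BP3 RPF replicate 1 (orange) all members but ATF3 are negative in RPF.

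The members also shared a pattern between replicates. In siIGF2BP3 RPF replicate 1, 9 of 10 members were the highest of their group, whereas 35.3% of all genes were. FOS was among the 9 by a narrow margin, with a range of 3.69 to 3.91 CPM, and ATF3 was the exception. In siControl Input replicate 1, 8 of 10 members were the lowest of their group, against 30.8% of all genes, and the exceptions were FOSB and EGR1. The widest spreads in siControl Input were those of ATF3 and DUSP1, 1.83-fold and 1.64-fold from the lowest to the highest library. Their biological coefficients of variation in Input were 4.46 and 3.95 times the trend for their level (percentile 99.9 of all genes for both). In siIGF2BP3 Input the same genes ranged only from 36.4 to 44.04 CPM and from 75.0 to 81.4 CPM. The totals of siControl Input were 12513626, 14797573 and 12601353 counts. Without siControl Input replicate 1 the Input changes of FOS, JUND, ATF3 and IER2 were 0.17, 0.05, 0.10 and 0.10 (log2), against 0.27, 0.10, 0.29 and 0.17 with it, and none passed the test in either. The cause of these deviations was not tested.

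**Figure D5:**
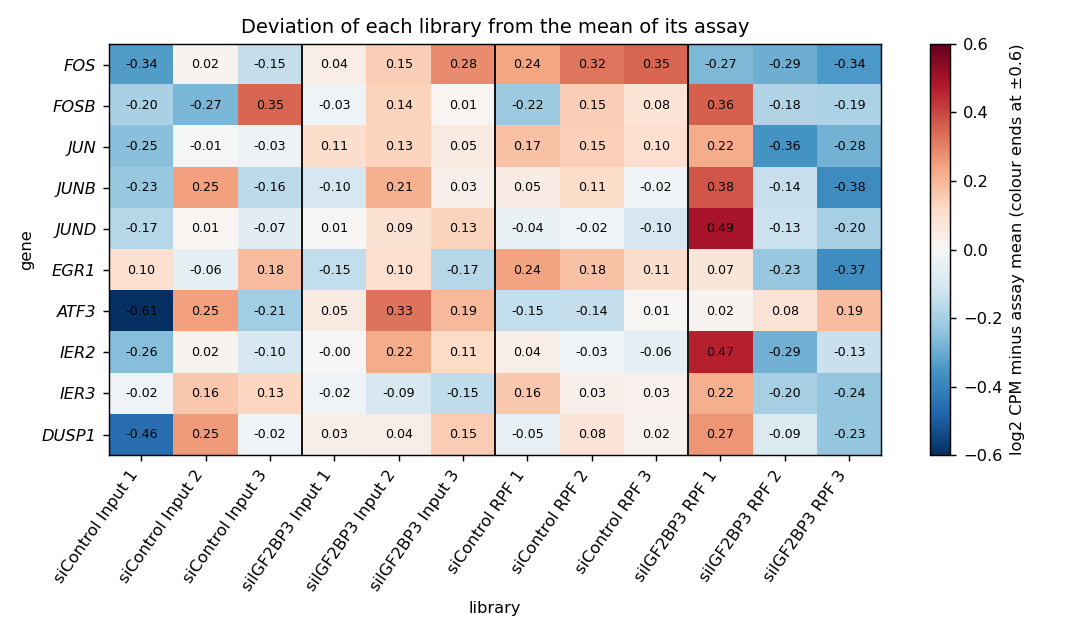
Log2 CPM of each member minus its mean over the 6 libraries of the same assay (colour and printed value), by library (columns) and gene (rows). In siControl Input 1 most members are low, with ATF3 at −0.61 and DUSP1 at −0.46, and in siIGF2BP3 RPF 1 most are high, with JUND at 0.49 and IER2 at 0.47.

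Over the 12 libraries, after the mean of each assay was subtracted, JUN (r = 0.886), JUNB (0.878), DUSP1 (0.828) and IER2 (0.814) followed the mean of the other members most closely, and ATF3 (0.231), EGR1 (0.323) and FOS (0.454) least. FOSB, under 1 CPM in RPF, was left out. The pooled values joined unlike assays: over the 6 libraries of each, r was 0.98 in Input and −0.730 in RPF for ATF3, −0.457 and 0.814 for EGR1, −0.191 and 0.962 for IER3, and 0.813 and 0.275 for FOS. JUN was at 0.836 and 0.947. These values are descriptions, since libraries share the knockdown and the 2 libraries that stood apart. Of 9789 genes with at least 5 CPM in both assays, those whose profile was most like the mean of the members included HELZ2 (r = 0.939), HK2 (0.938), DAPK3 (0.914) and SDF4 (0.912). The median r over these genes was −0.02.

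Other genes of the pathway were read from lists by function. With all libraries, 5.96% of all genes were called in Input, 1.66% in RPF and 2.17% in TE. Among the other immediate early genes these shares were 7.5%, 5.26% and 2.63%. Of 40 other immediate early genes tested in Input, PLK3 (log2 0.43 ± 0.13 SE), a stress-responsive kinase, and IER5 (0.33 ± 0.08 SE) rose and ID1 (−0.17 ± 0.05 SE), an inhibitor of bHLH factors, fell. In RPF, 2 of 38 fell, the salt-inducible kinase SIK1 (−0.94 ± 0.13 SE) and the matricellular protein CCN1 (−0.59 ± 0.11 SE), and none rose. SIK1 also fell in TE (−0.81 ± 0.15 SE), the only one of 38 called there with all libraries. Its counts are uncertain because a near-identical copy exists in hg38. Without siIGF2BP3 RPF replicate 1, SIK1 was at −1.11 ± 0.05 SE and CCN1 at −0.70 ± 0.07 SE in RPF, and SIK1 was at −0.96 ± 0.11 SE in TE. Of this list, 12 of 38 genes fell and 1 rose in RPF there (16.5% of all genes were called). In TE without that library, 7 of 38 fell and none rose (10.0% of all genes were called). None of 16 AP-1 dimer partners was called in any comparison by edgeR with all libraries. Without that library 1 rose and 2 fell, of 17, in RPF and 1 of 16 fell in TE. Among 30 upstream MAP kinase and SRF genes, the kinase RPS6KA1 rose (0.26 ± 0.07 SE) and the ternary complex factor ELK3 fell (−0.37 ± 0.09 SE) in Input, with no call in RPF or TE. Without siIGF2BP3 RPF replicate 1, 2 of these 30 rose and 4 fell in RPF, and 2 fell in TE. Of 16 feedback inhibitors, the NF-κB inhibitor TNFAIP3 rose in Input (0.18 ± 0.05 SE). SPRY1, an inhibitor of receptor tyrosine kinase signalling, fell in RPF (−0.31 ± 0.05 SE) and in TE (−0.41 ± 0.10 SE). The ERK phosphatase DUSP5 fell in RPF (−0.80 ± 0.15 SE) at a mean of 2.33 CPM, below the level set for naming, and is named because the count is small. Without siIGF2BP3 RPF replicate 1, SPRY1 was at −0.31 ± 0.05 SE in RPF and −0.42 ± 0.09 SE in TE, and DUSP5 at −0.89 ± 0.14 SE in RPF, all called; over the 16, 1 rose and 4 fell in RPF and 4 fell in TE. Of 14 AU-rich element binding factors, TIAL1 rose in Input (0.22 ± 0.04 SE) and none was called in RPF or TE with all libraries. Without that library 1 rose and 5 fell in RPF, and 3 fell in TE.

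Of 14 heat shock and stress genes tested in Input, 4 were called (28.6%, against 5.96% of all genes) and 10 were not. HSPA1A (log2 0.69 ± 0.07 SE), HSPA1B (0.69 ± 0.08 SE) and their co-chaperone DNAJB1 (0.48 ± 0.05 SE) rose, and the endoplasmic reticulum chaperone HSPA5 (−0.29 ± 0.05 SE) fell. HSPA1A and HSPA1B are near-identical, so the split of reads between them is uncertain. In TE, HSPA5 rose (0.31 ± 0.07 SE, and 0.30 ± 0.06 SE without siIGF2BP3 RPF replicate 1). No other gene of this list was called in TE, and none in RPF, with all libraries. Without that library 2 rose and 1 fell in RPF, and 1 rose and 3 fell in TE. Among hepatocyte markers in Input, 5 of 11 fell (APOA1, TF, SERPINA1, AFP and ALB, log2 −0.29 to −0.19). In RPF and TE no hepatocyte marker was called with all libraries. Without siIGF2BP3 RPF replicate 1, 1 rose and 2 fell in RPF, and 4 rose and 1 fell in TE. Markers of other cell types summed to 55.02 to 62.3 CPM in Input and 77.9 to 93.4 CPM in RPF, largely from ACTA2 and CD68, with none called with or without that library. The part of these genes in the values of the members was not tested.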

How the data were processed

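Input RNA and RPF were sequenced from HepG2 cells, with 4 groups of 3 libraries that follow the titles given to GEO. The authors' processing notes name cutadapt, STAR and featureCounts with hg38; versions and the settings for strand and shared reads are not given in the sources used here. The deposited tables hold estimated counts, unscaled. Rounding them to whole numbers changed a library total by at most 0.0445%. Gene names came from GENCODE release 44 (99.2% of identifiers matched). The labels attach the RPF protocol to Input too, so Input library preparation is unknown.

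edgeR 4.0.16 (R 4.3.3) with filterByExpr, TMM factors and robust quasi-likelihood tests compared siIGF2BP3 with siControl. RNA used 6 Input libraries, RPF 6 RPF libraries, and TE the interaction of assay and knockdown over 12 libraries. P-values were adjusted by Benjamini-Hochberg over all genes tested, threshold 0.05. A 95% interval is the estimate ± its SE times the t quantile. CPM divides each count by its own library total and leaves TMM factors aside. Ratios pair libraries by number only as a display. Alternatives were DESeq2 1.42.0, limma 3.58.1 on ratios, other scalings and filters, GC and length offsets, a replicate block, leaving out or summing libraries. The procedure was also run on simulated counts with dispersions at the trend and independent libraries. That run held no near-equal libraries and none that stood apart, so it does not bear on the calls of single members. Library totals were 11219750 to 31510601 counts, and FOS rested on 51 to 182 counts in a library.

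The members and gene lists were chosen with earlier results of these data known. Named genes are the members, IGF2BP3, up to 6 called genes per list and comparison with a mean of at least 5 CPM, and the 5 genes most like the members' mean. Some genes that this rule names are not reported here.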

Additional observations from a re-analysis of the deposited data

Results flagged for a closer look

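With all libraries, FOS was the one member whose change after the knockdown differed between the assays by the test of that difference. Its transcripts changed by log2 0.27 ± 0.13 SE and its footprints by −0.66 ± 0.09 SE, and the difference was −0.92 ± 0.17 SE (edgeR interaction test, adjusted p = 0.00611). Without siIGF2BP3 RPF replicate 1, JUN (log2 −0.60 ± 0.08 SE) and IER2 (−0.37 ± 0.11 SE) passed that test as well as FOS. In that fit 10.0% of all genes were called. The FOS ratios were 0.313 to 0.395 in siIGF2BP3 and 0.631 to 0.769 in siControl, with libraries set together by number only as a display.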

How the results depend on the processing

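The fall of FOS in TE kept its direction under every alternative that gave a value, from −1.02 to −0.82 over 23 of them, and its call in all but limma on ratios (adjusted p = 0.122). DESeq2 gave its change as −0.91 ± 0.23 SE (unadjusted p = 6.17e-05) with no adjusted p. A mean of at least 5 CPM removed FOS from RPF and TE, which leaves 0 members called in either, as do DESeq2 and limma in TE. For RPF the change of FOS ranged from −0.70 to −0.62.

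Genes called in RPF (336 as reported) were 647 by DESeq2, 1094 with a GC offset, 14 with siControl RPF 2 and 3 summed and 4 with both groups summed, the last 2 with 0 members called. Summing in siControl and dropping siIGF2BP3 RPF 1, chosen after seeing the data, gave 3025 genes and 5 members in RPF and 1088 and 3 in TE. TE calls (291) were 401 by DESeq2, 816 with a GC offset, 143 and 100 when summed, and 0 by limma on ratios (1939 at unadjusted p under 0.05). Leaving out 1 library gave 444 to 907 genes and 0 to 1 members in RNA (879 and 1), 11 to 3410 and 0 to 6 in RPF, and 126 to 1350 and 1 to 3 in TE. The replicate block gave 931 genes and 2 members (IER3 and ATF3) in RNA, 379 and 1 in RPF, and 228 and 1 in TE. Samples of the same number deviated together with r = −0.05 to 0.003 in Input and 0.099 to 0.367 in RPF, not every sample correlated best with its own number, and the numbers were not taken to pair the samples. The cause of these shifts was not tested.

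Signs turned for values that were not called with all libraries, and IER2 in RPF was called with the turned sign without siIGF2BP3 RPF replicate 1. With a GC offset, JUNB was −0.0151 in RNA, JUND −0.0682 and IER2 −0.0351 in RPF, and JUND −0.12 in TE. TE of JUND was also −0.0355 with a length offset and −0.0454 by limma. With RPF 2 and 3 summed in both groups, JUNB was 0.034 and DUSP1 0.0704 in RPF, and summed in siControl DUSP1 was 0.0043. The setting chosen after seeing the data gave JUND −0.11 and IER2 −0.21 in RPF, and JUND −0.21 and IER3 −0.0746 in TE. Leaving out 1 library moved RNA values of FOSB from −0.11 to 0.27, JUNB from −0.0681 to 0.21 and DUSP1 from −0.11 to 0.25. In RPF it moved FOSB from −0.42 to 0.10, DUSP1 from −0.18 to 0.10, JUND from −0.11 to 0.30, IER2 from −0.21 to 0.22 and JUNB from −0.32 to 0.10. In TE it moved ATF3 from −0.31 to 0.14, DUSP1 from −0.28 to 0.0797, FOSB from −0.44 to 0.0699, JUND from −0.21 to 0.18, IER3 from −0.0668 to 0.17, IER2 from −0.37 to 0.027 and JUNB from −0.34 to 0.0511. FOSB rested on 9 to 69 counts in a library.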
